A study of Mus musculus with 6 samples.

Results

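The genes described here are 37 genes of Müller glia and retinal astrocytes, chosen by symbol from the 35485 genes that the deposited tables list. They comprise 5 reactivity genes (Gfap, Vim, Lcn2, Serpina3n and Cd44), 8 other genes of the glial injury response (Nes, Cp, A2m, Steap4, Ptx3, Emp1, Bcl3 and S100a6) and 24 homeostatic genes that glia use in the uninjured retina. All 37 were found in the tables, and 34 passed the filter on low values, a mean RPKM (exon reads per kilobase of exon, scaled to the reads mapped to genes) above 0.3 in at least one group. Steap4, Bcl3 and Pax2 did not pass and were not tested. The question was whether the reactivity genes and the homeostatic genes differed between retinas with a crushed and with an intact optic nerve.

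RNA was sequenced from whole retinas of wild type male C57BL/6 mice at an age of 12 weeks, 2 days after an operation on the optic nerve. In the optic nerve crush (ONC) group the nerve was exposed and pressed with forceps for 10 seconds at 2 mm behind the eye, and in the sham group it was only exposed. Each group had 3 samples, and each sample was 1 pool of RNA from 6 retinas of 6 mice. The p-values therefore measure the spread between pools, in which differences between single mice are averaged.

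Müller glia are the radial glia of the retina, which span its whole depth, clear glutamate, potassium and water, and feed the neurons. Astrocytes lie in the nerve fiber layer, around the axons that leave through the optic nerve. Injury of the retina or nerve is known to make both cell types reactive (gliosis), a state marked by intermediate filaments such as GFAP and vimentin and by secreted acute-phase proteins.

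The samples held 17343945 to 20358008 exon reads, and 70.9% to 80.4% of the reads on genes lay on exons, with sham replicate 3 at the low end. The defining Müller glia genes Glul, Slc1a3, Rlbp1, Sox9 and Aqp4 had reads in every sample. Of the astrocyte genes, Gfap, S100b and Aldh1l1 had mean sham RPKM of 4.94, 3.83 and 2.67, and Pax2, the transcription factor that separates retinal astrocytes from Müller glia, had only 2 to 16 exon reads per sample. Several members are also known from cells other than glia. Since whole retinas were measured, fewer glial cells and less RNA per glial cell cannot be told apart.

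Per length of exon, the homeostatic genes led the members. Glul, the glutamine synthetase that turns glutamate into glutamine, had the highest level, with an RPKM of 557 ± 40.8 in sham and 551 ± 20.04 in ONC (mean ± SD, n = 3 pools each). In the sham group it was followed by Apoe (240), the main lipid carrier of the retina, Car2 (220), carbonic anhydrase, Clu (193), the extracellular chaperone clusterin, Dkk3 (156), a secreted protein of the Dickkopf family, and Sparcl1 (79.5), a matrix protein, in units of mean RPKM. The sham samples of neighbors in this order of 6 genes did not overlap. Below them, Dbi, Ptgds, Sparc, Vim and Rax, at mean sham RPKM of 61.5 to 46.5, overlapped from each to the next. By group mean in ONC, Clu (268) took the place above Car2 (241) while the order of the other 4 of the first 6 stayed as in sham. The ONC samples of Apoe (243 to 295) overlapped those of Clu (264 to 271) and of Car2 (231 to 253).

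The reactivity genes lay lower. Vim, which encodes the filament protein of all Müller glia, had a mean sham RPKM of 48.8, while Gfap (4.94), Serpina3n (4.64), Lcn2 (4.03) and Cd44 (1.40) lay below the median of the 13670 genes kept. Together the 5 reactivity genes took 0.0173% to 0.0177% of all exon reads in sham and 0.0196% to 0.0227% in ONC, most of it from Vim, and the groups did not overlap. The 24 homeostatic genes took 0.568% to 0.599% in sham and 0.590% to 0.599% in ONC, and the groups overlapped.

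**Figure D1:**
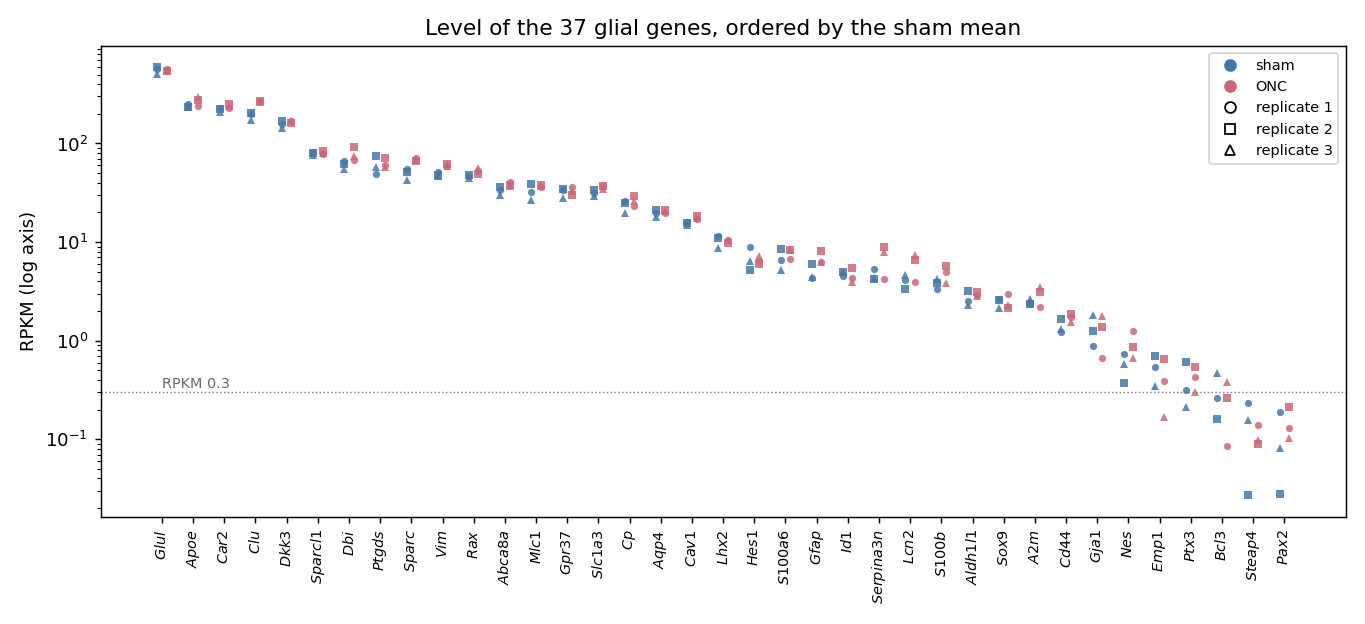
RPKM of the 37 genes in each of the 3 sham and 3 ONC samples (points, shaped by replicate number), on a log axis and ordered by the mean of the sham group, with the filter of 0.3 as a dotted line. Glul leads at a sham mean of 557, Gfap lies at 4.94, and Bcl3, Steap4 and Pax2 lie at the low end.

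Total exon reads were compared by the quasi-likelihood test of edgeR on TMM-normalised counts, with Benjamini-Hochberg adjustment over all 13670 genes. A gene passed the test at an adjusted p under 0.1 and was called a DEG if its fold change also exceeded 1.5. Of the 34 members tested, 2 passed as higher in ONC (5.88%), Clu and Sparc, both from the homeostatic list. Among all genes tested, 2.38% passed as higher. No member passed as lower in ONC, against 3.72% of all genes, and no member was a DEG in either direction, against 0.827% of all genes higher and 0.834% lower. At an unadjusted edgeR p under 0.05 there were 8 members (23.5%), Clu, Sparc, Gfap, Vim, Serpina3n, Nes and Dbi on the higher side and Glul on the lower, while 16.7% of all genes reached it. The DESeq2 Wald test also called 0 members lower and 0 DEGs, and it called 3 members higher, with Vim as the third.

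The 5 reactivity genes all had positive log2 fold changes, from 0.18 to 0.47 with a median of 0.36, and none of them passed the edgeR test. The median was 0.24 without ONC replicate 2 and 0.25 without ONC replicate 3. Of the 23 homeostatic genes tested, 12 had a positive and 11 a negative value, with a median of 0.01, and the median over all genes tested was 0.01. The 6 other injury-response genes tested had a median of 0.07, and 5 of the 6 values were positive. Taken sample by sample, the median over the 5 reactivity genes of the log2 ratio to the sham mean was 0.20, 0.52 and 0.23 in the 3 ONC samples and between -0.08 and 0.02 in the sham samples. The same median over the homeostatic genes stayed between -0.02 and 0.05 in all 6 samples. Since members were chosen with earlier results of these data known, these medians are descriptions and were not tested as lists.

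**Figure D2:**
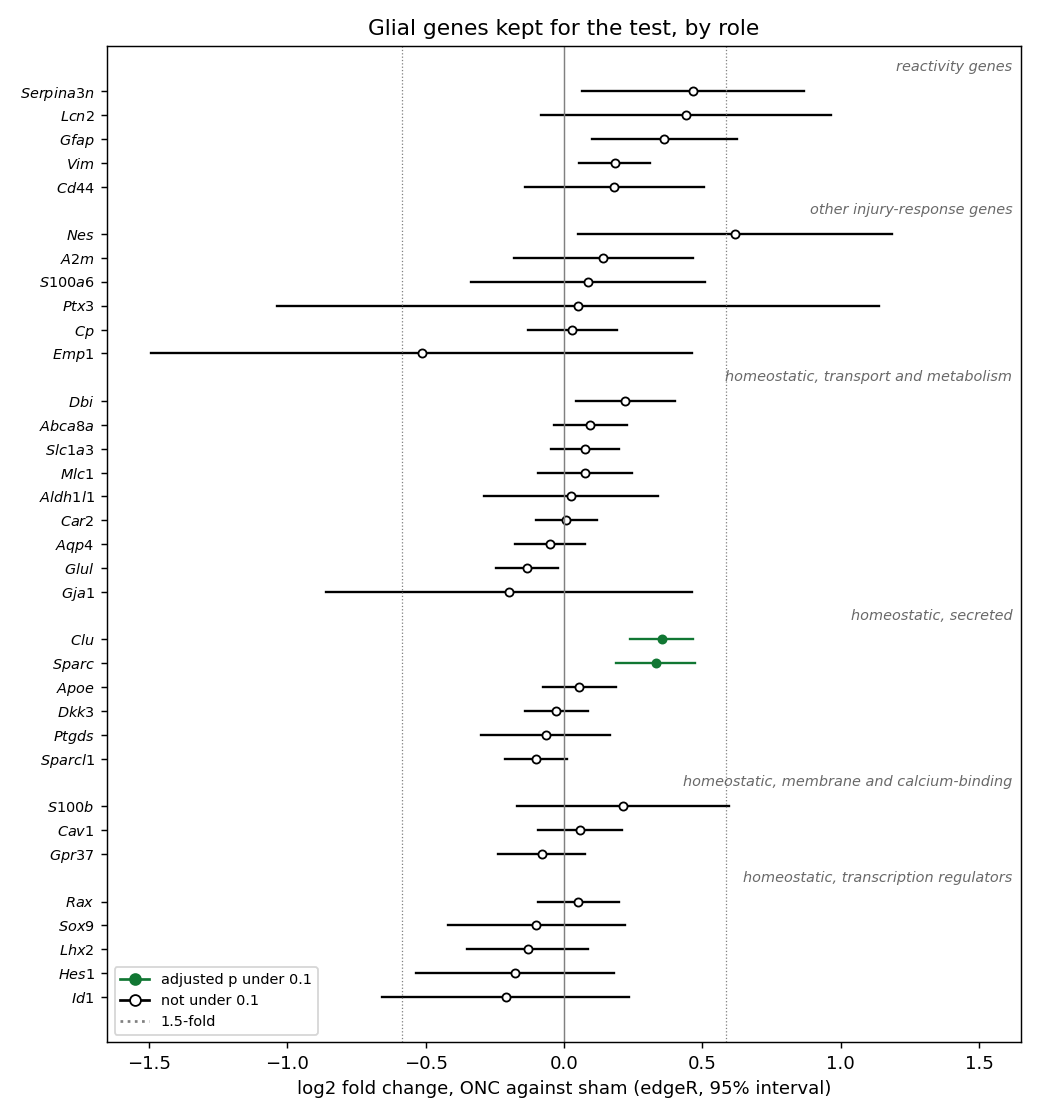
Log2 fold change of ONC against sham for the 34 genes tested (points, with 95% intervals from edgeR), grouped by role, with dotted lines at a fold change of 1.5 in either direction. The points of Clu (0.35) and Sparc (0.33), filled in green, passed the test, and all 5 reactivity genes lie right of 0 as open points.

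Gfap (chr11:102887336-102897200 in the tables' GRCm38 positions) encodes glial fibrillary acidic protein, which astrocytes make at all times and Müller glia make after injury. In normalised CPM, exon reads scaled to a common depth with TMM factors, it measured 23.3, 32.5 and 25.9 in the sham samples and 32.8, 40.5 and 31.8 in the ONC samples, each in the order of replicates 1 to 3, which is kept for all genes. ONC replicate 2 was the highest of all samples, and the groups overlapped, since sham replicate 2 lay just above ONC replicate 3. The log2 fold change was 0.36 ± 0.12 (SE), a difference of 28.5% with a 95% interval of 7.24% to 54.1%, and it missed the threshold with an edgeR adjusted p of 0.126. In RPKM, which the authors scaled by all reads on genes, introns included, Gfap measured 4.35, 6.06 and 4.42 in sham and 6.31, 8.19 and 6.27 in ONC, and the groups did not overlap. On the RPKM scale, however, ONC lay above sham without overlap for 25.4% of all genes tested and below for 3.45%. Gfap passed under 7 of 15 alternatives, among them the RPKM scaling (log2 fold change 0.48, edgeR adjusted p 0.0213) and both limma fits on RPKM. These share 1 scale and are not independent, and the median over all genes tested was 0.13, 0.13 and 0.11 in them. Gfap also passed without ONC replicate 1, where 14.9% of all genes tested passed. The log2 fold change of Gfap was lowest without ONC replicate 2, at 0.24.

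Vim (chr2:13574311-13582826) measured 125, 115 and 124 normalised CPM in sham and 139, 139 and 135 in ONC. The ONC samples all lay above the sham samples and close together, and Vim was the one reactivity gene whose groups did not overlap on this scale. Its log2 fold change was 0.18 ± 0.06 (SE), a difference of 13.6% with a 95% interval of 3.91% to 24.2%, and the edgeR adjusted p was 0.112. Groups that did not overlap, with ONC above, were found for 4 of the 34 members (11.8%), Vim, Sparc, Clu and Cav1, and for 11.0% of all genes tested. With ONC below, they were found for 3 members (8.82%), Glul, Aqp4 and Sparcl1, and for 10.8% of all genes.

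Lcn2 and Serpina3n, which encode the secreted iron-siderophore binding protein lipocalin 2 and a serine protease inhibitor, are widely used markers of reactive astrocytes. Serpina3n measured 14.8, 11.5 and 13.1 normalised CPM in sham and 11.2, 22.4 and 20.6 in ONC. Lcn2 measured 4.63, 3.74 and 5.71 in sham and 4.29, 6.88 and 7.93 in ONC. For both genes ONC replicates 2 and 3 lay above every sham sample while ONC replicate 1 lay within or below the sham range. Serpina3n had a log2 fold change of 0.47 ± 0.19 (SE) with a 95% interval of 0.06 to 0.87 and an edgeR adjusted p of 0.218. Lcn2, with 68 to 165 exon reads per sample, had a log2 fold change of 0.44 ± 0.25 (SE), an interval of -0.08 to 0.97 and an edgeR adjusted p of 0.394. Without ONC replicate 1 both passed the edgeR test and exceeded a fold change of 1.5, with log2 fold changes of 0.71 for Serpina3n and 0.66 for Lcn2. In that fit 14.9% of all genes tested passed in either direction, against 6.09% with all samples. With any other sample left out neither gene passed. The log2 fold changes then went down to 0.28 for Serpina3n without ONC replicate 2 and 0.25 for Lcn2 without ONC replicate 3.

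Cd44 encodes the hyaluronan receptor, a surface protein of reactive astrocytes and Müller glia that leukocytes also carry. It measured 9.10, 12.2 and 10.8 normalised CPM in sham and 12.7, 12.8 and 11.0 in ONC. The groups overlapped, and the log2 fold change of 0.18 ± 0.15 (SE) had a 95% interval of -0.14 to 0.50 and an edgeR adjusted p of 0.596. Cd44 was the one reactivity gene that passed under none of the 15 alternatives.

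**Figure D3:**
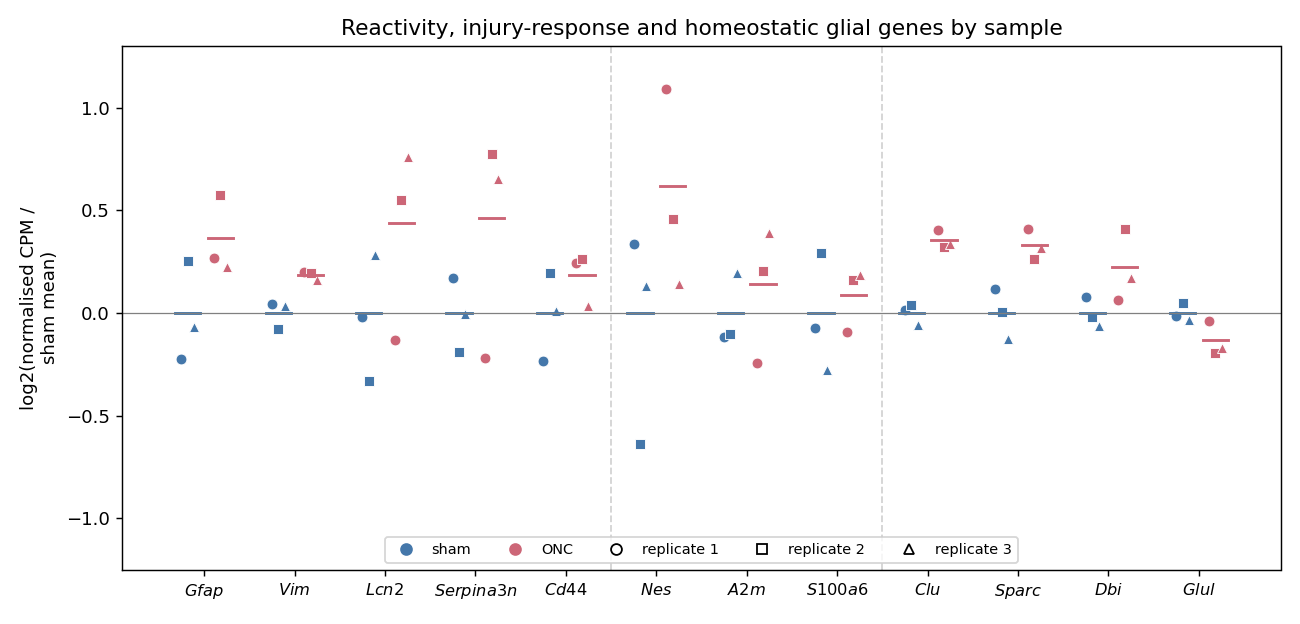
Log2 ratio of each sample's normalised CPM to the sham mean, for 5 reactivity genes (left), 3 injury-response genes (middle) and 4 homeostatic genes (right), with points shaped by replicate number and short lines at the group means. ONC replicate 1 lies below the other ONC samples for Lcn2, Serpina3n, A2m, S100a6 and Dbi and above them for Vim, Nes, Clu, Sparc and Glul. The ONC points of Clu and Sparc all lie above the sham points.

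Low values in ONC replicate 1 were not a general trait of the members. It was the lowest of the 3 ONC samples for 11 of the 34 members (32.4%) and for 5 of the 11 reactivity and injury-response genes tested, against 37.9% of all genes tested. Within the members the share varied, from 5 of the 9 genes of transport and metabolism to 0 of the 5 transcription regulators tested. Of the 7 microglia and macrophage genes counted below, ONC replicate 1 was the lowest of the ONC samples for 1, the lysosomal gene Cd68, and the highest for 5, Itgam among them. Of the 8 tested markers of A1-type reactive astrocytes, also counted below, ONC replicate 1 was the lowest for 5 and the highest for 1. The cause of the low values of Lcn2, Serpina3n and A2m in ONC replicate 1 was not tested.

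The start region of Gfap and those of 3 other members are shown because they hold, or lack, the letters of a motif that STAT3 is known to bind, and STAT3 is a known activator of Gfap in reactive glia. Start windows of 300 bases, 250 before and 50 after each RefSeq start (GRCm38.p6), were given for 27 of the 37 members. The motif TTCNNNGAA, which reads the same on both strands, was found in the windows of 5 of these 27 members, Gfap, Steap4, Emp1, Slc1a3 and Pax2, or in 5 of 36 windows, while 8.30% of all 32851 windows hold it. TGANTCA, the letters of an AP-1 site and also the same on both strands, was found in Cp, Emp1, Gja1 and Ptgds, while 7.81% of all windows hold it. In Emp1 a copy of the first motif overlaps a copy of the other. The stretches below run from 120 bases before to 20 bases after the start, 5′ to 3′ on the strand of the gene, with matches to either motif in capitals. They lie at chr11:102897181-102897320 (minus strand), chr2:13574191-13574330 (plus strand), chr5:7960352-7960491 (plus strand) and chr15:8710788-8710927 (minus strand).
Gfap: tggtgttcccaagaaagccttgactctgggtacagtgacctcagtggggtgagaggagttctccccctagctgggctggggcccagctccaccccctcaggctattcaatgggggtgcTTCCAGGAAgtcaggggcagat
Vim: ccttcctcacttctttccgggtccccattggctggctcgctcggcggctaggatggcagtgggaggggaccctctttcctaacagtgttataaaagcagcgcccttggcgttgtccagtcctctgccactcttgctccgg
Steap4: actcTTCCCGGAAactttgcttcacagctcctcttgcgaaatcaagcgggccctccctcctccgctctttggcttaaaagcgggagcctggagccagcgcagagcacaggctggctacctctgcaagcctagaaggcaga
Slc1a3: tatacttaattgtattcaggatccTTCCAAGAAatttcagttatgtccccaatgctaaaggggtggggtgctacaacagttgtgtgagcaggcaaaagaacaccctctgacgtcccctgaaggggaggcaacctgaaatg
The Gfap match begins 2 bases before the start and runs over it, the Slc1a3 match begins 96 bases before the start, and the Steap4 match begins 116 bases before it. Vim holds neither motif in its window. Of the 5 members with TTCNNNGAA, Gfap had a log2 fold change of 0.36, Slc1a3 of 0.08 and Emp1 of -0.51, and Steap4 and Pax2 were below the filter. A match says only that the letters are there.

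Among the other injury-response genes, Nes, which encodes the filament protein nestin of neural progenitors and reactive Müller glia, had the largest fold change. It measured 5.84, 2.97 and 5.06 normalised CPM in sham and 9.84, 6.34 and 5.09 in ONC. ONC replicate 1 was the highest and ONC replicate 3 lay within the sham range. The log2 fold change was 0.62 ± 0.27 (SE), the 95% interval 0.05 to 1.18, and the edgeR adjusted p 0.250 from 54 to 195 exon reads per sample. Without ONC replicate 1 the log2 fold change was 0.31, and without sham replicate 2 it was 0.38.

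The genes Cp, A2m and S100a6 had smaller log2 fold changes than Nes, and none of them passed the edgeR test. Cp, the copper oxidase ceruloplasmin, had the highest level of them (mean sham RPKM 23.6) with a log2 fold change of 0.03 ± 0.08 (SE), and its 95% interval of -0.13 to 0.19 holds no change as large as a fold of 1.5. A2m, the protease inhibitor alpha-2-macroglobulin, measured 14.3, 14.5 and 17.8 normalised CPM in sham and 13.1, 17.9 and 20.3 in ONC. ONC replicate 1 lay below the sham range and ONC replicates 2 and 3 above it. The log2 fold change of A2m, 0.14 ± 0.15 (SE), had a 95% interval of -0.18 to 0.47 and an edgeR adjusted p of 0.693. It was 0.30 without ONC replicate 1 and -0.0058 without ONC replicate 3. S100a6, a calcium-binding protein, had a log2 fold change of 0.09 with an interval of -0.34 to 0.51.

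The remaining injury-response genes were near the limit of detection. Emp1, a membrane protein, had 34, 46 and 23 exon reads in sham and 27, 44 and 12 in ONC, with overlapping groups, a log2 fold change of -0.51 and an interval of -1.49 to 0.46. Ptx3, a pentraxin of innate immunity, had 10 to 28 exon reads per sample, of which 23.7% were uniquely mapped, and an interval of -1.04 to 1.14. Steap4, a metalloreductase, had 2 to 17 exon reads per sample, and Bcl3, a regulator of NF-kB, had 4 to 21. The interval of Ptx3 holds fold changes above 1.5 in both directions, and that of Emp1 holds them on the lower side.

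Of the homeostatic genes, Clu (chr14:65968483-65981545) was the member with the smallest p. It measured 477, 486 and 454 normalised CPM in sham and 624, 589 and 596 in ONC. The ONC samples all exceeded the sham samples, and the gap between the groups was wider than the range within either. The log2 fold change was 0.35 ± 0.05 (SE), a rise of 27.8% with a 95% interval of 18.1% to 38.2% and an edgeR adjusted p of 0.000387. The rise passed the test under all 15 alternatives, with log2 fold changes from 0.33 to 0.48.

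Sparc (chr11:55394501-55420080) encodes a matrix glycoprotein of Müller glia that vessels and fibroblasts also secrete. It measured 168, 156 and 142 normalised CPM in sham and 207, 187 and 194 in ONC. The groups did not overlap, and the log2 fold change of 0.33 ± 0.07 (SE), a rise of 25.8% with a 95% interval of 14.0% to 38.8%, had an edgeR adjusted p of 0.00608. It passed under all 15 alternatives, with adjusted p from 3.39e-05 to 0.0781. Its relative Sparcl1 (chr5:104079108-104114088) measured 335, 332 and 340.1 in sham and 309.6, 320.1 and 309 in ONC. These groups did not overlap either, with ONC below, but the log2 fold change of -0.10 ± 0.05 (SE) had an edgeR adjusted p of 0.354 and turned to 0.02 under the RPKM scaling and in limma.

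The other secreted proteins did not differ beyond the spread. Apoe measured 411, 389 and 421 normalised CPM in sham and 387, 421 and 460.0 in ONC, with overlapping groups, a log2 fold change of 0.06 and an interval of -0.08 to 0.19. Ptgds, the prostaglandin D synthase, varied most within sham, from 52.0 to 79.2, and had a log2 fold change of -0.07 with an interval of -0.30 to 0.17. Dkk3 had a log2 fold change of -0.03 and an interval of -0.14 to 0.09. The values of Ptgds and Dkk3 turned positive under the RPKM scaling.

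Among the genes of transport and metabolism, Glul (chr1:153899945-153909714) measured 2074, 2167 and 2051 normalised CPM in sham and 2039.9, 1832 and 1864 in ONC. All ONC samples lay below the sham samples, with ONC replicate 1 close to them. The log2 fold change was -0.13 ± 0.05 (SE) with a 95% interval of -0.25 to -0.02, and the edgeR adjusted p was 0.206. Without ONC replicate 1 the value was -0.18 and passed the test (edgeR adjusted p 0.0051), while under the RPKM scaling it was -0.01. In the fit without ONC replicate 1, 14.9% of all genes tested passed in either direction, against 6.09% with all samples.

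Slc1a3, the glutamate transporter GLAST that brings Glul its substrate, measured 175, 185 and 176 normalised CPM in sham and 197, 188 and 181 in ONC, with overlapping groups and a log2 fold change of 0.08 (95% interval -0.05 to 0.20). Aqp4, the water channel of the endfeet, had its ONC samples just below the sham samples, with a log2 fold change of -0.05 (interval -0.18 to 0.08) that turned to 0.07 under the RPKM scaling. Dbi, the acyl-CoA binding protein that glia also release as a ligand of GABA receptors, measured 65.5, 61.3 and 59.2 in sham and 64.9, 82.4 and 69.7 in ONC. ONC replicate 1 lay within the sham range, and the log2 fold change of 0.22 ± 0.09 (SE) had an edgeR adjusted p of 0.186.

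Car2, Mlc1, Abca8a and Aldh1l1, which encode carbonic anhydrase, a membrane protein of astrocyte endfeet, a lipid transporter and a folate enzyme, had log2 fold changes of 0.01, 0.08, 0.10 and 0.03. The interval of each of these 4 lay within a fold change of 1.5 in either direction. Gja1, the gap junction protein connexin 43, varied most within groups, with 63, 94 and 139 exon reads in sham and 52, 106 and 144 in ONC, and its interval of -0.86 to 0.46 was wider than those of the other 8 genes of transport and metabolism.

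Of the membrane and calcium-binding proteins, Cav1, the coat protein of caveolae, measured 58.4, 57.0 and 59.9 normalised CPM in sham and 60.7, 61.3 and 60.4 in ONC. The groups did not overlap, but the difference was small, with a log2 fold change of 0.06 and an edgeR adjusted p of 0.741. Gpr37, an orphan receptor, had a log2 fold change of -0.08 that turned to 0.04 under the RPKM scaling. S100b, the astrocyte calcium-binding protein, measured 7.32, 8.46 and 10.2 in sham and 10.6, 11.5 and 7.93 in ONC, with overlapping groups and a log2 fold change of 0.21 (interval -0.17 to 0.60).

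Of the 5 transcription regulators tested, none passed, and 4 had negative log2 fold changes. These were Sox9 (-0.10), the regulator of gliogenesis, Lhx2 (-0.13), a homeobox gene that maintains the Müller glial state, Hes1 (-0.18), the Notch effector, and Id1 (-0.21), the inhibitor of bHLH factors. Rax (0.05), the retinal homeobox gene, was the exception, and 68.2% of its exon reads were uniquely mapped. Sox9 turned to 0.02 under the RPKM scaling. The intervals of Sox9, Lhx2, Hes1 and Rax lay within a fold change of 1.5, and that of Id1, from -0.66 to 0.24, did not. Pax2 had 13, 2 and 6 exon reads in sham and 10, 16 and 8 in ONC, too few for a test.

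Over all 34 members, the 95% interval lay within a fold change of 1.5 in either direction for 25, and for 20 of these 25 the gene was homeostatic. Among the reactivity genes it did so for Vim and Cd44. The half-width of the interval had a median of 0.15 on the log2 scale for homeostatic genes and 0.32 for reactivity genes, and 0.23 over all genes tested. The median CV between pools was 5.16% in sham and 6.67% in ONC for homeostatic genes, against 14.7% and 13.6% for reactivity genes.

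The scale of the values moved the members together. The RPKM scaling, which leaves out TMM and divides by reads on whole genes, moved the median log2 fold change over all genes from 0.01 to 0.13. Exons held 70.9% to 76.6% of the reads on genes in sham and 78.5% to 80.4% in ONC. In RPKM, ONC lay above sham without overlap for 9 members (26.5%), but for 25.4% of all genes tested too, and ONC lay below for no member, against 3.45% of all genes. Under this scaling 8 members (23.5%) passed the edgeR test, all as higher in ONC, against 11.0% of all genes tested. They were Clu, Sparc, Gfap, Vim, Serpina3n, Nes, Dbi and Abca8a. On that scale the median log2 fold change was 0.48 for the reactivity genes and 0.13 for the homeostatic genes, beside the 0.13 of all genes.

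**Figure D4:**
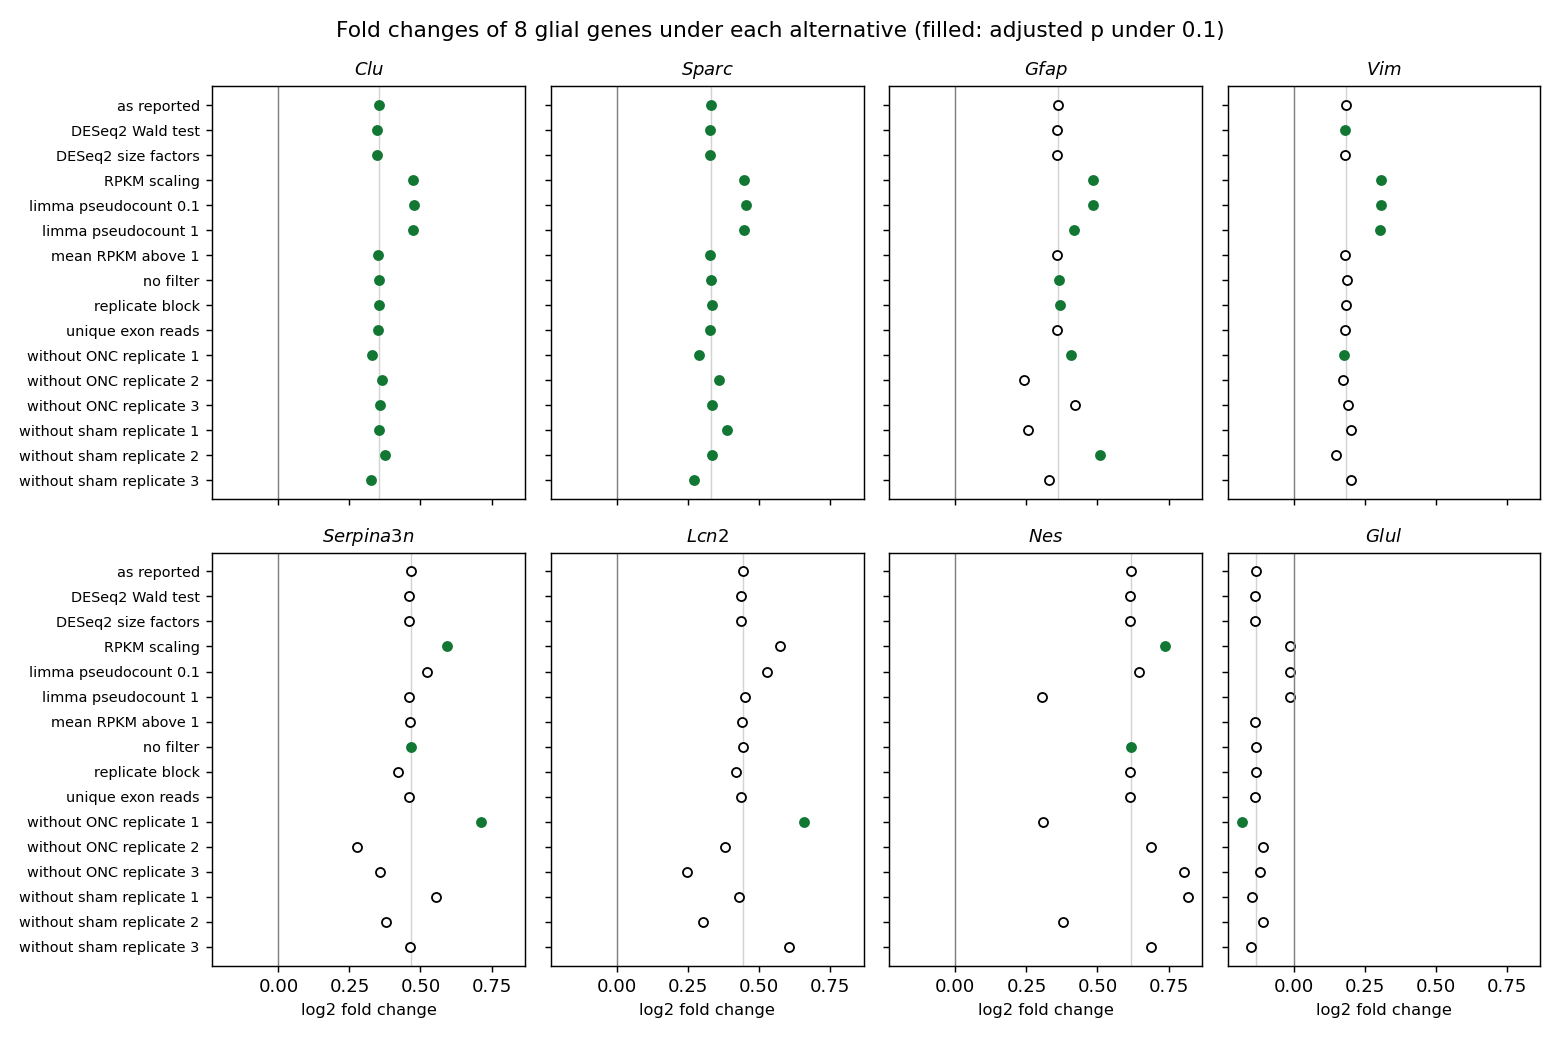
Log2 fold change (horizontal axis) of 8 members as reported and under each of the 15 alternatives (rows), with a grey line at the reported value and filled green points where the adjusted p was under 0.1. Clu and Sparc are filled in every row, while Gfap, Vim, Serpina3n and Lcn2 are filled in 7, 5, 3 and 1 of the 15 alternatives. The rows are not independent, since the RPKM scaling and both limma fits share the RPKM scale.

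Other genes of the same pathways were counted from lists chosen in the same way. For these lists and those below, the shares over all genes tested were 2.38% passing as higher and 3.72% as lower. An unadjusted edgeR p under 0.05 was reached by 16.7% of all genes tested. Of 12 further Müller glia genes, all of them tested, none passed the edgeR test in either direction (1 reached an unadjusted p under 0.05, Nfix, a transcription factor), and 9 had negative values with a median of -0.09. Rlbp1, the retinoid carrier of Müller glia, had a log2 fold change of 0.00 ± 0.05 (SE). Of 6 further pan-reactive astrocyte genes, 4 were tested and none passed, with 2 at an unadjusted p under 0.05. These were Hspb1, the small heat shock protein (log2 fold change 0.73, edgeR adjusted p 0.101, 47.7% of its exon reads uniquely mapped), and Osmr, the receptor of oncostatin M (0.40, edgeR adjusted p 0.188).

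Of 11 genes used as markers of A1-type reactive astrocytes, 8 were tested and 1 passed as higher, against 2.38% of all genes tested. This was the class I antigen H2-D1 (log2 fold change 0.27 ± 0.08 (SE), edgeR adjusted p 0.0777). It passed under 11 of 15 alternatives, and not without ONC replicate 2, ONC replicate 3, sham replicate 2 or sham replicate 3. Of the exon reads of H2-D1, 98.3% were uniquely mapped. Class I genes have near-identical copies, and whether reads of such copies were placed on H2-D1 was not tested. Of 10 genes used for the A2 type, 6 were tested and none passed, with 1 at an unadjusted p under 0.05, S100a10. The medians of the 2 lists were alike, at 0.25 and 0.26.

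Of 9 genes that signal gliosis, 7 were tested and 1 passed as higher, against 2.38% of all genes tested. This was Stat3, the transcription factor that carries signals of the IL-6 family. It measured 65.9, 71.4 and 59.5 normalised CPM in sham and 80.5, 77.8 and 87.0 in ONC. The groups did not overlap, which held with ONC above for 11.0% of all genes tested. The log2 fold change of Stat3 was 0.32 ± 0.08 (SE) with an edgeR adjusted p of 0.0258. It passed under 13 of 15 alternatives, and the adjusted p reached 0.184 at most, in the fits without ONC replicate 3 or sham replicate 3. The receptors of this family, Il6st and Lifr, had log2 fold changes of 0.01 and -0.16, and its target Socs3 had 0.25 with an edgeR adjusted p of 0.688. Of the ligands, Il6 had 4 exon reads in 1 ONC sample and 0 in the other 5, Lif had 9 to 17 per sample, and Cntf had 73 to 112 with a log2 fold change of 0.18 (interval -0.30 to 0.65, edgeR adjusted p 0.750, 23.7% of its exon reads uniquely mapped).

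Markers of other cells that share genes with the members were summed as normalised CPM. The 7 microglia and macrophage genes summed to 23.6 to 29.8 in sham and 34.1 to 41.6 in ONC, without overlap. Of the 7, 2 passed as higher, against 2.38% of all genes tested. They were Itgam (log2 fold change 0.76, edgeR adjusted p 0.0903) and Cd68 (1.5, edgeR adjusted p 0.0912). These calls held under 9 of 15 alternatives for Itgam and 10 of 15 for Cd68, and both were lost without ONC replicate 2, ONC replicate 3, sham replicate 2 or sham replicate 3. Of these 7 genes, 6 had positive log2 fold changes and 1 a negative one, at -0.32, with a median of 0.49. None of the 7 was at 0 in any sample. Apoe, Cd44, A2m and Vim are among the members that such cells can also express, and their part in the values above was not tested. The 8 endothelial and mural genes, whose cells also express Sparc and Cav1, summed to 202 to 216 in sham and 179.8 to 232 in ONC, and none of the 7 tested passed (0 at an unadjusted edgeR p under 0.05). Most of that sum came from Kdr, which measured 121 to 177. Of the 7 genes tested 6 had negative log2 fold changes, with a median of -0.25, and the median log2 ratio to the sham mean was -0.19, -0.19 and -0.27 in the ONC samples and -0.08 to 0.09 in the sham samples.

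The 5 fibroblast genes summed to 2.86 to 4.75 in sham and 4.19 to 5.62 in ONC, with Lum at 0 in 3 samples and Ogn at 0 in ONC replicate 1. The 5 oligodendrocyte genes, cells of the nerve beyond the eye, summed to 39.6 to 41.8 in sham and 34.4 to 41.3 in ONC, with Mobp at 0 in all samples and Mag at 0 in ONC replicate 1. The 4 pigment epithelium genes summed to 95.2 to 134 in sham and 77.1 to 119 in ONC. The 4 neutrophil genes, cells known to hold Lcn2, summed to 1.18 to 2.64 in sham and 0.769 to 4.73 in ONC, with Mpo at 0 in all samples, Ly6g at 0 in all but 1 and S100a8 at 0 in ONC replicate 1. In these 4 lists no gene passed the edgeR test, and none reached an unadjusted p under 0.05. The 5 rod photoreceptor genes summed to 67432 to 71931 in sham and 66224 to 73241 in ONC. Of the 5, 2 passed as higher, against 2.38% of all genes tested. They were Pde6b (log2 fold change 0.18) and Sag (0.39), the arrestin of rods, of which Sag passed under all 15 alternatives and Pde6b under 9. The other 3 rod genes had negative log2 fold changes, and the median over the 5 was -0.02.

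Reads on introns, taken as reads on the whole gene less those on exons, allowed a test of 25 members. None of them passed with an adjusted p under 0.1 in edgeR, in either direction, while 0.456% of 13391 genes passed as higher and 2.24% as lower. At an unadjusted p under 0.05 there were 2 members (8.0%), Cd44 and Clu, against 17.2% of all genes. Clu had 79, 58 and 73 intron reads in sham and 72, 114 and 162 in ONC, with a log2 fold change of 0.72 ± 0.27 (SE, edgeR adjusted p 0.190). The raw reads of the groups overlapped, and the normalised ones, at 10.3 to 14.8 CPM in sham and 15.1 to 25.5 CPM in ONC, did not.

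Cd44 stood apart from the other members in its intron reads. It had 9117, 7951 and 16535 of them in sham and 7674, 4347 and 5654 in ONC, all uniquely mapped, against 159 to 263 exon reads per sample. Sham replicate 3, the sample with the highest share of intron reads, was far above the others. After normalisation the intron reads measured 1706, 1408 and 2743 CPM in sham and 1614, 779.6 and 889 CPM in ONC, and the groups overlapped, since ONC replicate 1 lay above sham replicate 2. The log2 fold change of the intron reads was -0.84 ± 0.26 (SE, edgeR adjusted p 0.13), on the other side of 0 from the exon reads. Without sham replicate 3 it was -0.51 (edgeR adjusted p 0.366). The library kit is not named as marking strand, so reads from genes or unannotated transcripts on either strand within the Cd44 interval (chr2:102811141-102901665) cannot be told from its own.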

How the data were processed

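RNA-seq of whole retinas from 3 ONC and 3 sham pools of 6 retinas was analysed, with groups and replicate numbers from the sample titles. The authors mapped reads with CLC Genomics Workbench and deposited, per gene and sample, unnormalised read counts for exons and for the gene with its introns, total and unique, and RPKM values scaled by all reads on genes. They also deposited exon lengths, exon numbers and positions. The positions overlapped RefSeq GRCm38.p6 for 37 of 37 members, although mm9 is the build named in the submitters' processing notes.

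Joined exon counts were tested with edgeR 4.0.16 in R 4.3.3 (TMM, glmQLFit, glmQLFTest, condition as the only term) over 13670 genes whose mean RPKM exceeded 0.3 in either group. The SE is the log2 fold change over the root of F, and 95% intervals use edgeR's total degrees of freedom. Intron counts were tested likewise after filterByExpr (13391 genes). The biological CV was 9.17%. Alternatives used DESeq2 1.42.0 and limma 3.58.1 on log2 RPKM plus 0.1 or 1, other filters, scalings and reads, a replicate block, and each sample left out. Exon reads of 17343945 to 20358008 per sample set the precision, and genes with fewer than 10 reads are known only within wide limits. Scripts were checked on simulated data. All members are named, and of each further list at most 4 genes with an adjusted p under 0.1, of cell markers those at 0 or called. Nfix, Rlbp1, Hspb1, Osmr, S100a10, Il6st, Lifr, Socs3, Il6, Lif, Cntf and Kdr were added after their values were seen. The members and lists were chosen with earlier results of these data known. Counts are of reads without molecular identifiers. No sample reads were reprocessed. Summaries and figures used Python 3.11.15, pandas 2.3.3 and matplotlib 3.10.9.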

Additional observations from a re-analysis of the deposited data

How the results depend on the processing

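Clu and Sparc passed as higher in ONC under all 15 alternatives for exon reads. The count of members that passed as higher was 8 under the RPKM scaling, 5 in limma with either pseudocount (0.1 or 1), 6 without a filter, and 2 to 7 with a sample left out, the 7 without ONC replicate 1, where Gfap, Vim, Lcn2, Serpina3n and Dbi were added. The count lower in ONC was 0 to 1 with a sample left out (Glul without ONC replicate 1). DEGs higher in ONC numbered 2 under the RPKM scaling (Nes and Serpina3n), 1 without a filter (Nes), and 0 to 2 with a sample left out (Lcn2 and Serpina3n without ONC replicate 1). Those lower stayed at 0. The median of the reactivity genes, 0.36, ran from 0.24 without ONC replicate 2 to 0.41 without ONC replicate 1 and was 0.48 under the RPKM scaling, moves smaller than its spread between samples (SD 0.13), and that of the homeostatic genes moved with the scale to 0.13 under the RPKM scaling and 0.13 and 0.11 in limma with a pseudocount of 0.1 and 1. All genes called numbered 833, against 1730 under the RPKM scaling, 1121 and 1158 in limma with 0.1 and 1, 1176 of 17655 without a filter, 2031, 435 and 452 without ONC replicate 1, 2 or 3, and 371 and 400 without sham replicate 2 or 3.

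The replicate numbers did not pair the samples, with correlations of deviations of -0.0591, -0.0252 and 0.00695. With the replicate block 3 members passed, Gfap being added, and 728 of all genes. In intron reads 1 member, Cd44, passed as lower with exon library sizes, 1 without a filter, 1 with the replicate block, and 0 to 1 with a sample left out (without ONC replicate 1). All genes called in intron reads numbered 361, but 1108 without a filter and 1297 with exon library sizes, 913 without sham replicate 1, 0 without ONC replicate 2 or sham replicate 2, 1 without ONC replicate 3 and 88 without sham replicate 3.

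No member that passed changed its sign. Under the RPKM scaling, limma with 0.1 and limma with 1, in this order, values turned positive for Aqp4 (0.070, 0.072, 0.069), Ptgds (0.058, 0.075, 0.074), Sparcl1 (0.021, 0.021, 0.021), Dkk3 (0.092, 0.094, 0.094), Gpr37 (0.037, 0.038, 0.037) and Sox9 (0.016, 0.0079, 0.0071). With unique exon reads Ptx3 was at -0.10. With a sample left out, the sign changed for Cp (-0.051 to 0.092), A2m (-0.0058 to 0.30), Ptx3 (-0.21 to 0.54), S100a6 (-0.032 to 0.26), Car2 (-0.011 to 0.022), Gja1 (-0.54 to 0.16), Mlc1 (-0.015 to 0.19), Aldh1l1 (-0.033 to 0.15), Ptgds (-0.21 to 0.089), Dkk3 (-0.053 to 0.0032), Apoe (-0.013 to 0.12), Sox9 (-0.27 to 0.0047), Rax (-0.0081 to 0.11) and Hes1 (-0.35 to 0.015). The cause was not tested. Depth limits Ptx3, Emp1, Steap4, Bcl3 and Pax2, with at most 46 exon reads per sample.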
